A study of Mus musculus with 6 samples.

Results

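The laminin and integrin genes were examined in the RNA-seq of inguinal white adipose tissue (iWAT), a subcutaneous depot of white fat. They were taken by symbol from the deposited expression table, as every laminin α, β or γ chain and every integrin α or β subunit, which gave 37 of 22564 genes. Of these, 11 encode laminin chains and 26 encode integrin subunits (18 α and 8 β). The 8 integrin genes of leukocytes (Itga4, Itgad, Itgae, Itgal, Itgam, Itgax, Itgb2 and Itgb7) were kept apart from the 18 matrix integrins. iWAT came from 3 samples of the cold group, held at 4 °C, and 3 samples of the thermoneutral group, held at 30 °C, each for 7 days. All were 2-month-old male mice of strain C57BL/6 in the labels (C57BL/6J in the study's methods), and the labels name no transgene or drug. The labels do not say whether a sample was 1 mouse or several, so p-values measure only the spread between these samples.

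Laminins are trimers of 1 α, 1 β and 1 γ chain that form the sheet of the basement membrane. In fat a basement membrane wraps each adipocyte and underlies the endothelium of the capillaries. Integrins are αβ heterodimers that hold cells to this matrix, and the α subunit largely sets the ligand. Subunits α3, α6 and α7 bind laminins, α1, α2, α10 and α11 bind collagens, and α5, α8, αv and αIIb bind ligands with the tripeptide RGD. Leukocyte integrins bind mostly counter-receptors on other cells.

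The table gave each gene 2 values per sample, FPKM and a count already scaled by the submitters, called the scaled count here. The estimated depth was 15262070 to 16936375 fragments for cold samples, against 18894385 to 23636742 for thermoneutral samples. The test was limma's, run on log2-transformed scaled counts (pseudocount 1) of 11650 genes that reached an FPKM of 1 in 3 or more samples, and p-values were adjusted by Benjamini-Hochberg over all of them. A gene is said to have risen or fallen where the adjusted p was under 0.05. On this deposited scale the median gene had a log2 fold change of -0.54 in cold, and 35.2% of genes fell and 6.24% rose. After each sample was centred on its median gene, 5.35% fell and 10.3% rose, so both scales are given. Ucp1, the uncoupling protein of beige adipocytes, had 107026 to 137879 scaled counts in cold against 114 to 242 in thermoneutral samples, and the adipocyte hormone gene Adipoq was high in all 6 (38641 to 44206 in cold against 59732 to 104059). The source label reads adipocytes, but markers of fibroblasts, endothelium and macrophages were present in every sample, so the samples are read as whole tissue. One sample of each group stood apart. Thermoneutral replicate 1 held 28756 scaled counts over 8 epithelial markers, led by the keratin gene Krt14 at 22333, against 18.7 to 90.4 in the other 5 samples. Its sums were below those of thermoneutral replicates 2 and 3 for white adipocyte markers (254394 against 472447 and 488539) and endothelial markers (12558 against 24450 and 22736). The same held for preadipocyte and fibroblast markers (74576 against 132584 and 158283). Its sum of thermogenic markers was higher (3159 against 2378 and 2377), and its skeletal muscle sum lay between theirs. Cold replicate 2 held 237944 scaled counts over 10 skeletal muscle markers, against 1894 to 12228 in the others, and the highest sum over 12 lymphocyte markers.

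No member rose, and 12 of the 26 members that passed the filter fell on the deposited scale. The backgrounds of 35.2% fallen and 6.24% risen apply here. The 12 were 4 of 8 tested laminins, 6 of 13 tested matrix integrins and 2 of 5 tested leukocyte integrins. After median centring 4 of the 12 still fell (Lama2, Itga11, Itgb4 and Itgam), where 5.35% of all genes fell and 10.3% rose. Itga9, Itga10 and Itga11 passed the filter through their thermoneutral values alone, so they had to differ. A filter on the mean scaled count over all 6 samples (at least 20), which does not use the groups and was added after the data had been seen, kept 33 members. Under it 16 fell on the deposited scale, where 29.2% of all genes fell and 5.17% rose, and 3 fell after centring, where 3.09% of all genes fell and 8.2% rose. Of the 4 genes named above, only Itga11 still passed there, and Lama2 (adjusted p = 0.065), Itgb4 (adjusted p = 0.070) and Itgam (adjusted p = 0.054) did not. Over all 37 members, every cold sample lay below every thermoneutral sample for 23 genes and the groups overlapped for 14, against 52.1% of tested genes with every cold sample lower and 9.09% with every cold sample higher (50.1% lower among genes past the filter on the mean). The 37 include 11 members under the FPKM filter, while 52.1% is over genes that passed it, so these sets are not alike. Single samples moved the counts of fallen genes. Without thermoneutral replicate 1, 5 laminins, 8 matrix and 3 leukocyte integrins fell, where 44.1% of all genes fell and 8.01% rose, and after centring 3, 5 and 1 fell, where 10.7% fell and 14.5% rose. Without cold replicate 2, 2 laminins, 4 matrix and 2 leukocyte integrins fell, where 22.6% of all genes fell and 4.27% rose, and after centring Itga11 alone, where 2.32% fell and 6.88% rose. Leaving out thermoneutral replicate 2 left 1 laminin, and leaving out cold replicate 1, cold replicate 3 or thermoneutral replicate 3 left 2 laminins. The count of all genes that fell dropped too, from 4097 with all 6 samples to 1061 without thermoneutral replicate 3, the lowest. Shares of all genes are not given for each of these omissions, so the drop is not read as particular to laminins. On the deposited scale the calls of Lama2, Itga11, Itgav, Itgb4 and Itgam held without any 1 sample, and those of Lamb1, Lamb2, Lamc1, Itga9, Itga10, Itgb2 and Itgb5 were lost without at least 1.

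**Figure D1:**
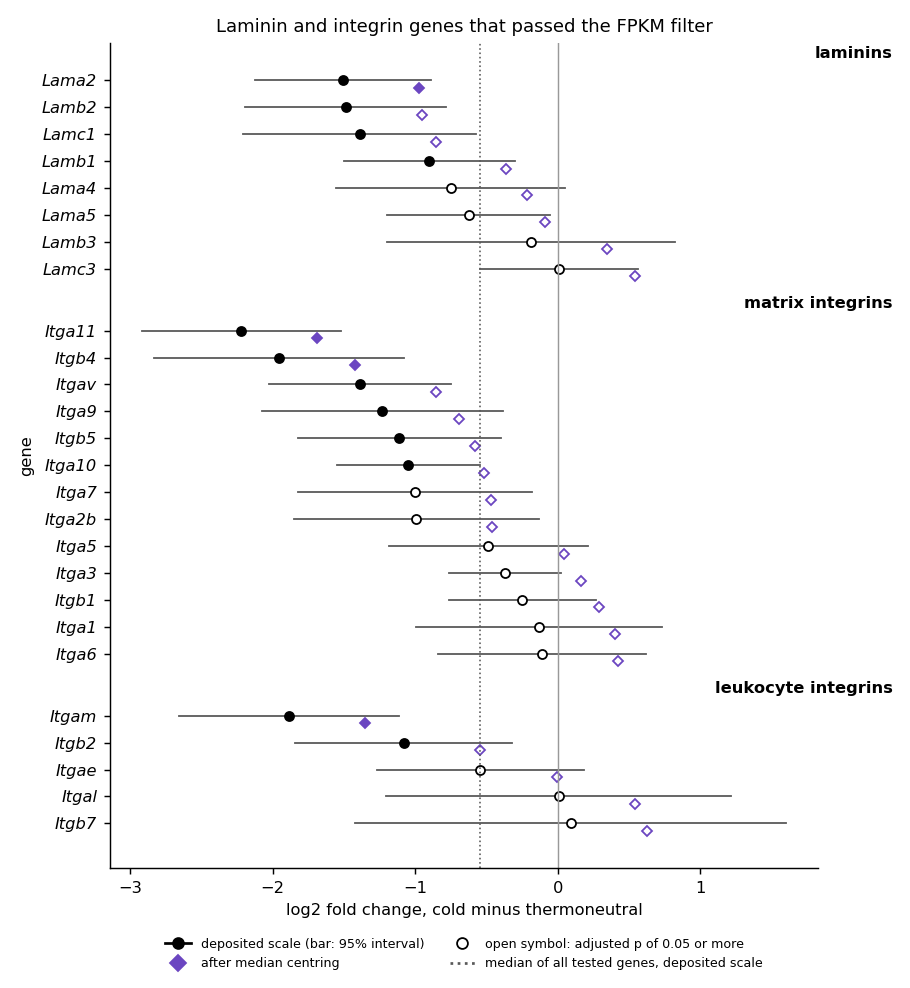
Log2 fold change (cold minus thermoneutral) of the 26 laminin and integrin genes that passed the FPKM filter, by gene group. Black circles with 95% intervals are on the deposited scale and purple diamonds are after median centring, filled where the adjusted p was under 0.05. The dotted line is the median of all tested genes at -0.54, and no gene has a filled symbol to the right of 0.

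Among laminin α chains, Lama2 fell and Lama4 and Lama5 did not pass the test. Lama2 encodes α2, a chain of muscle and nerve basement membranes, and lies on chromosome 10 from 26980036 to 27619758 on the minus strand (all positions are on GRCm38). It had 509.5, 624 and 544 scaled counts in cold samples, against 1101, 1959.7 and 1839.5 in thermoneutral samples. The cold values lay close together and below all thermoneutral values. Lama2 fell, with a log2 fold change of -1.50 (adjusted p = 0.0098, standard error 0.26), and of -0.97 after centring (adjusted p = 0.038). Lama2 fell without any 1 sample on the deposited scale, while its centred call was lost without cold replicate 2 (adjusted p = 0.093) and under the filter on the mean (adjusted p = 0.065). Cold replicate 2, the sample with the muscle transcripts, had 624 scaled counts of Lama2, the highest of the cold values. The part of muscle RNA in the Lama2 values was not tested.

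Lama4 encodes α4, the chain found in basement membranes of capillaries and adipocytes, and was the α chain with the highest FPKM in every sample. It had 3346, 3303 and 3766 scaled counts in cold, against 3425, 7335 and 7901 in thermoneutral samples. Thermoneutral replicate 1 lay within the cold range, and thermoneutral replicates 2 and 3 lay above it. The log2 fold change was -0.75 (95% interval -1.55 to 0.05, adjusted p = 0.11). Without thermoneutral replicate 1 it was -1.14 (adjusted p = 0.0039), with an adjusted p of 0.051 after centring. Lama5 encodes α5, a chain of epithelial and vascular basement membranes. It had 539, 924 and 794 scaled counts in cold, against 1072, 1056 and 1285 in thermoneutral samples, with no overlap. Its log2 fold change of -0.63 (adjusted p = 0.074) lay close to the median gene.

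The α3 chain, which joins β3 in the laminin that anchors the epidermis, was low but separated. Lama3 had 27.4, 28.5 and 30.1 scaled counts in cold, against 229, 141 and 162 in thermoneutral samples. No sample reached an FPKM of 1, so Lama3 was outside the main test. Under the filter on the mean scaled count, its log2 fold change was -2.56 (adjusted p = 0.0045), and -1.99 after centring (adjusted p = 0.0085). Lamb3, which encodes β3, overlapped between the groups: it had 149.7, 125 and 78.9 scaled counts in cold, against 224, 79.4 and 123 in thermoneutral samples. Its log2 fold change of -0.19 (adjusted p = 0.73) turned to 0.35 after centring. Lama3 and Lamb3 were highest in thermoneutral replicate 1, the sample with keratin transcripts. Lama3 remained above every cold value in the other thermoneutral samples, where Krt14 was at 4.84 and 38.2 scaled counts. Lama1, which encodes the early embryonic and epithelial α1 chain, had 64.3 scaled counts in thermoneutral replicate 1 and 0 to 2.9 in the other 5 samples. The part of epithelial RNA in these values was not tested.

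The β and γ chains of the common trimers fell on the deposited scale. Lamb2, which encodes β2, a chain of the neuromuscular junction and of vessel walls, had 1137, 1142 and 1215 scaled counts in cold, against 2081, 3771 and 4443 in thermoneutral samples. The cold values lay close together, and each thermoneutral value was higher. Its log2 fold change was -1.49 (adjusted p = 0.014, standard error 0.30), and -0.95 after centring (adjusted p = 0.068). Lamc1 encodes γ1, the γ chain of most laminins, and had 2576, 3145 and 3452 scaled counts in cold, against 4844, 8765 and 11858 in thermoneutral samples. It fell by 1.39 on the log2 scale (adjusted p = 0.022, standard error 0.34), and its centred log2 fold change was -0.86 (adjusted p = 0.12). Lamb1, which encodes β1, had 2392 to 3142 scaled counts in cold against 3699 to 6573 in thermoneutral samples, giving a log2 fold change of -0.90 (adjusted p = 0.032) and of -0.37 after centring (adjusted p = 0.35). Lamc1 and Lamb1 lost the call when any 1 sample other than thermoneutral replicate 1 was left out. Lamb2 lost it, among single samples left out, only without thermoneutral replicate 2 (adjusted p = 0.054). Lamc3, which encodes γ3, did not pass the test: it had 259, 238 and 309 scaled counts in cold, against 202, 329 and 282 in thermoneutral samples. The groups overlapped, with a log2 fold change of 0.01 (95% interval -0.54 to 0.56, adjusted p = 0.97).

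**Figure D2:**
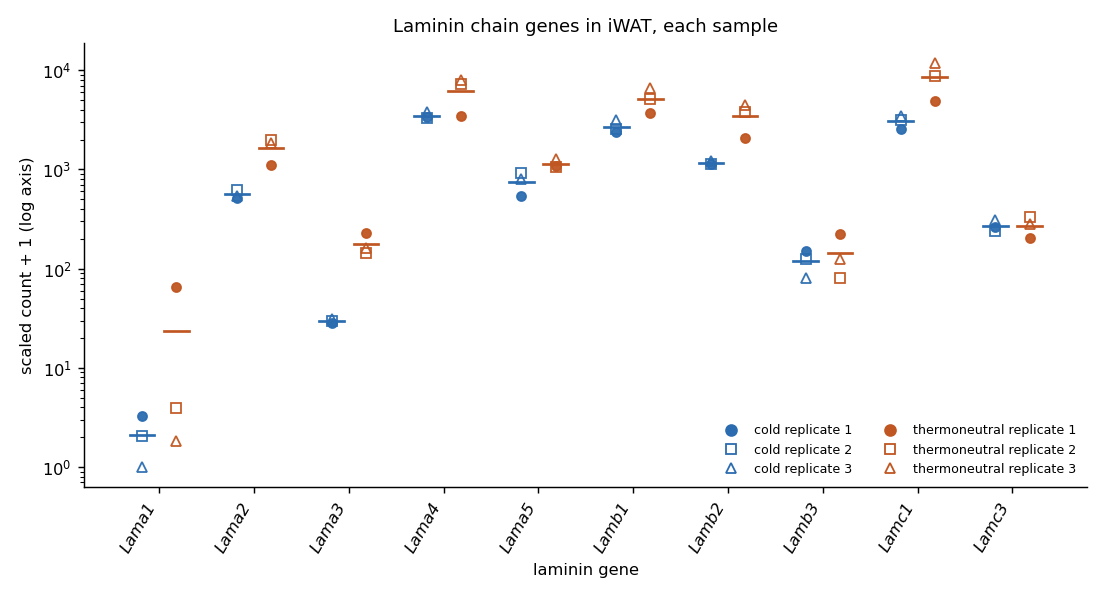
Scaled count plus 1 (log axis) of 10 laminin genes in each of the 3 cold (left, blue) and 3 thermoneutral (right, orange) samples, with a bar at the group mean. Lama2, Lama3, Lama5, Lamb1, Lamb2 and Lamc1 have every cold sample below every thermoneutral sample, and Lama1, Lama4, Lamb3 and Lamc3 overlap.

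The laminin genes were then read as shares of their class, which no scaling of a whole sample changes. FPKM, which accounts for transcript length, was used so that chains could be compared with each other. These shares are a description with no test, since 3 samples against 3 cannot give an exact permutation p below 0.1. Lama4 held 79.8%, 72.0% and 81.6% of the α chain FPKM in cold, against 63.2%, 75.8% and 81.4% in thermoneutral samples, and the groups overlapped. Lama2 held 2.80%, 4.96% and 4.40% in cold, against 7.99%, 7.83% and 7.42% in thermoneutral samples, so its share was lower in each cold sample. Lama5 held 13.8% to 22.8% in cold and 10.6% to 26.8% in thermoneutral samples.

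Among β chains the shares of β1 and β2 were separated between the groups. Lamb1 held 67.7%, 69.4% and 70.4% of the β chain FPKM in cold, against 62.1%, 59.1% and 59.8% in thermoneutral samples. Lamb2 held 27.3%, 26.5% and 27.1% in cold, against 32.9%, 39.7% and 38.7% in thermoneutral samples. Neither share overlapped between groups: β1 took more and β2 less of the class in cold. Thermoneutral replicate 1 lay between the cold samples and the other thermoneutral samples for both chains. Lamc1 held 93.5% to 95.1% of the γ chain FPKM in cold and 95.3% to 96.9% in thermoneutral samples, and Lamc3 held 4.06% to 5.68% in cold against 2.02% to 2.88% in thermoneutral samples. In each sample the ratio of scaled counts of Lama4 to Lamc1 was 1.30, 1.05 and 1.09 in cold, against 0.707, 0.837 and 0.666 in thermoneutral samples. On scaled counts the ratio of Lama2 to Lamc1 overlapped, at 0.158 to 0.199 in cold and 0.155 to 0.227 in thermoneutral samples. On FPKM this ratio did not overlap and was lower in each cold sample, so the reading depends on the measure.

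**Figure D3:**
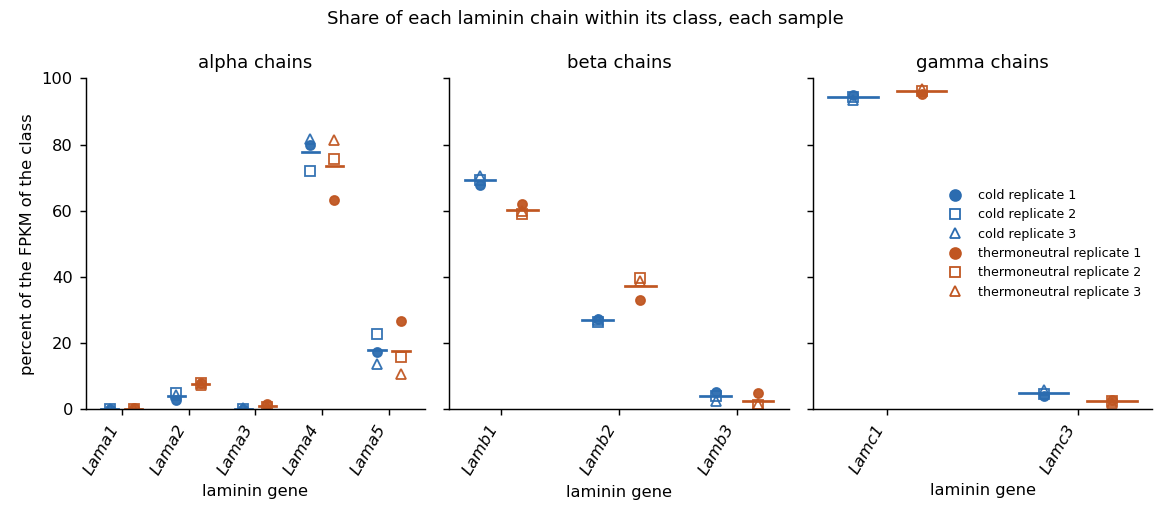
Percent of the FPKM of the α, β or γ laminin chains held by each chain drawn, in each cold (left, blue) and thermoneutral (right, orange) sample, with a bar at the group mean. Lamb1 has a higher share (67.7% to 70.4% in cold against 59.1% to 62.1%) and Lamb2 a lower share (26.5% to 27.3% in cold against 32.9% to 39.7%).

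The laminin-binding α subunits and their partner β1 did not pass the test. Itgb1 encodes β1, the partner of most matrix α subunits, and had the highest mean FPKM of all integrin genes in both groups. It had 4414, 5533 and 5400.3 scaled counts in cold, against 4729.9, 7239 and 6439 in thermoneutral samples. The groups overlapped, and the log2 fold change of -0.25 (95% interval -0.76 to 0.27, adjusted p = 0.37) turned to 0.29 after centring (adjusted p = 0.36). Itga6 encodes α6, a laminin receptor of endothelium and epithelium. It had 806, 1612 and 1687 scaled counts in cold, against 1396, 1327 and 1486 in thermoneutral samples. Cold replicate 1 was the lowest of the 6 samples and the other cold samples were the highest. The log2 fold change of -0.11 (adjusted p = 0.78) turned to 0.42 after centring. Itga3, which encodes α3, had 146 to 154 scaled counts in cold and 178 to 225 in thermoneutral samples, and its log2 fold change of -0.37 (adjusted p = 0.11) turned to 0.16 after centring. The 10 endothelial markers summed to 17895 to 18513 scaled counts in cold and 12558 to 24450 in thermoneutral samples. Of the 10, 2 fell, where 35.2% of all genes fell. After centring none of the 10 fell and 1 rose, where 5.35% of all genes fell and 10.3% rose. Without thermoneutral replicate 1, 5 of the 10 fell on the deposited scale (2 after centring), where 44.1% of all genes fell (10.7% after centring).

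Itga7 encodes α7, the laminin receptor best known from skeletal muscle, and was the integrin α gene with the highest mean FPKM in both groups. It had 2549.8, 2168 and 2430.2 scaled counts in cold, against 2759, 5918 and 6590.2 in thermoneutral samples. Thermoneutral replicate 1 was close to the cold samples, and the other thermoneutral samples were higher. The log2 fold change was -1.0 (95% interval -1.82 to -0.18, adjusted p = 0.055). Without thermoneutral replicate 1 it was -1.39 (adjusted p = 0.0028), and -0.84 after centring (adjusted p = 0.027). Cold replicate 2 held the muscle transcripts (Acta1 at 40274 scaled counts) and the lowest Itga7 value of all 6 samples. The part of muscle RNA in the Itga7 values was not tested. The ratio of Itga7 to Itgb1 was 0.578, 0.392 and 0.450 in cold, against 0.583, 0.818 and 1.02 in thermoneutral samples, with cold replicate 1 and thermoneutral replicate 1 nearly level.

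Itgb4 encodes β4, which pairs with α6 alone and anchors epithelia and some vessel cells. The gene lies on chromosome 11 from 115974709 to 116008412. It had 89.3, 125 and 126 scaled counts in cold, against 764, 334 and 326 in thermoneutral samples. All thermoneutral samples were above all cold samples, and thermoneutral replicate 1, with its keratin transcripts, was the highest. Itgb4 fell by 1.96 on the log2 scale (adjusted p = 0.012, standard error 0.37), and by 1.42 after centring (adjusted p = 0.045), a centred call lost without cold replicate 2 (adjusted p = 0.11) and under the filter on the mean (adjusted p = 0.070). With thermoneutral replicate 1 left out the log2 fold change was -1.55 (adjusted p = 0.0043), and -1.0 after centring (adjusted p = 0.012). The ratio of Itgb4 to Itga6 was 0.0745 to 0.111 in cold, against 0.547, 0.252 and 0.219 in thermoneutral samples.

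Of the collagen-binding subunits, Itga11 and Itga10 fell and Itga1 did not pass the test. Itga11 encodes α11, the collagen receptor of fibroblasts, on chromosome 9 from 62677826 to 62783982. It had 38.8, 41.1 and 28 scaled counts in cold, against 114, 213 and 198 in thermoneutral samples. The groups were far apart. Itga11 fell by 2.22 on the log2 scale (adjusted p = 0.0058, standard error 0.29), and by 1.68 after centring (adjusted p = 0.011). Since it passed the FPKM filter through thermoneutral samples alone, the filter on the mean, which does not use the groups, is given beside it: the adjusted p was 0.011 on the deposited scale and 0.023 after centring. On the deposited scale Itga11 fell without any 1 sample. Of 12 preadipocyte and fibroblast markers 11 fell, where 35.2% of all genes fell, and 7 fell after centring, where 5.35% fell. Their sum was 31247 to 34710 scaled counts in cold against 74576 to 158283 in thermoneutral samples. The centred count of these markers was 2 without cold replicate 2, where 2.32% of all genes fell. It was also 2 under the filter on the mean, where 3.09% fell. Their part in the change of Itga11 was not tested. In bulk tissue fewer cells of a type and less RNA per cell cannot be told apart.

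Itga10 encodes α10, a collagen receptor known from cartilage. It had 53.7, 82.3 and 64.4 scaled counts in cold, against 122, 138 and 153 in thermoneutral samples, giving a log2 fold change of -1.05 (adjusted p = 0.014) and of -0.51 after centring (adjusted p = 0.10). A predicted gene on the same strand shares 33.5% of its exonic bases, so its level is uncertain. Itga1, which encodes the collagen receptor α1 of mesenchymal and endothelial cells, had 377 to 628 scaled counts in cold and 337 to 751 in thermoneutral samples. Its log2 fold change of -0.13 (95% interval -1.0 to 0.73) turned to 0.40 after centring. Itga2, which encodes the collagen receptor α2 of platelets and epithelia, was near 0 in both groups, at 3.43 to 5.27 and 2.04 to 9.95 scaled counts in cold and thermoneutral samples.

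**Figure D4:**
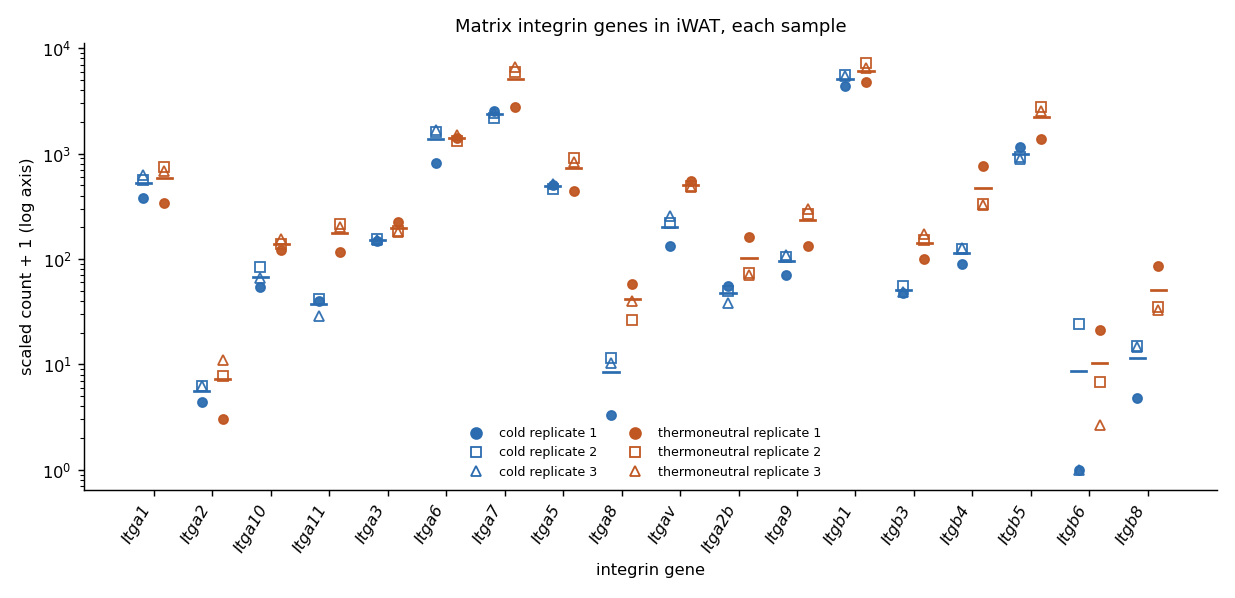
Scaled count plus 1 (log axis) of the 18 matrix integrin genes in each cold (left, blue) and thermoneutral (right, orange) sample, with a bar at the group mean. Itga11 (28 to 41.1 in cold against 114 to 213) and Itgb4 (89.3 to 126 in cold against 326 to 764) are separated, while Itgb1, Itga1, Itga5, Itga6, Itga2 and Itgb6 overlap.

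Among RGD-binding subunits, Itgav and its partner Itgb5 fell on the deposited scale. Itgav encodes αv, a receptor for vitronectin and for latent TGFβ, and had 131, 216 and 253 scaled counts in cold, against 551, 495 and 477 in thermoneutral samples. The groups were far apart, and the thermoneutral values were within a narrow range. On the scaled counts Itgav fell by 1.39 on the log2 scale (adjusted p = 0.013, standard error 0.27), with -0.85 after centring (adjusted p = 0.061). On FPKM the log2 fold change of Itgav was -0.44 and did not pass the test (adjusted p = 0.16): its FPKM was 2.68 to 4.17 in cold and 3.55 to 6.60 in thermoneutral samples, which overlap. Itgb5, which encodes β5, the vitronectin receptor subunit that pairs with αv, had 1147, 926 and 888 scaled counts in cold, against 1369, 2741 and 2539 in thermoneutral samples. Itgb5 had a log2 fold change of -1.11 (adjusted p = 0.028), and -0.58 after centring (adjusted p = 0.24). Without thermoneutral replicate 1 it fell on both scales, with adjusted p values of 0.0035 and 0.032.

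Itga5, which encodes the fibronectin receptor α5, had 502, 463 and 517 scaled counts in cold, against 443, 908 and 824 in thermoneutral samples. Thermoneutral replicate 1 was the lowest of the 6 samples, and the log2 fold change of -0.49 (adjusted p = 0.20) turned to 0.05 after centring. Without that sample Itga5 fell by 0.81 on the log2 scale (adjusted p = 0.0085), and it did not pass the test after centring (adjusted p = 0.32). Itga9, which encodes α9, a receptor for tenascin-C needed for lymphatic valves, had 69.7 to 109 scaled counts in cold against 133 to 297 in thermoneutral samples, giving a log2 fold change of -1.23 (adjusted p = 0.034) and of -0.70 after centring (adjusted p = 0.19). Itga2b encodes αIIb, the platelet fibrinogen receptor. It had 37.4 to 54.8 scaled counts in cold and 68.8 to 161 in thermoneutral samples, giving a log2 fold change of -0.99 (adjusted p = 0.064). Its partner gene Itgb3, which encodes β3, had 46.8, 54.8 and 47.8 scaled counts in cold, against 99.0, 152 and 173 in thermoneutral samples, and fell under the filter on the mean scaled count (log2 fold change -1.45, adjusted p = 0.016). After centring Itgb3 had an adjusted p of 0.065. Of 6 platelet markers, Pf4 alone passed the filter, and their sum was 196 to 272 scaled counts in cold against 441 to 736 in thermoneutral samples. The part of platelet RNA in the values of Itga2b and Itgb3 was not tested.

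The remaining matrix integrin genes were low. Itga8, which encodes α8, the nephronectin receptor, had 2.28, 10.5 and 9.35 scaled counts in cold, against 57.1, 25.2 and 39.0 in thermoneutral samples. Itgb8, which encodes the TGFβ-activating subunit β8, had 3.75, 13.9 and 13.5 in cold, against 84.5, 34.1 and 31.5 in thermoneutral samples. The groups did not overlap for either, and both were highest in thermoneutral replicate 1. Under the filter on the mean scaled count the log2 fold changes were -2.43 for Itga8 (adjusted p = 0.027) and -2.19 for Itgb8 (adjusted p = 0.039), and after centring neither passed (adjusted p = 0.078 and 0.12). Itgb6, which encodes the epithelial subunit β6, was listed at 0, 23.2 and 0 in cold and at 20.4, 5.81 and 1.66 in thermoneutral samples.

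The leukocyte integrins are given by the cells that carry them. The pair Itgam and Itgb2, which encode the αM and β2 subunits of the complement receptor of macrophages and neutrophils, fell on the deposited scale. Itgam lies on chromosome 7 from 128062640 to 128118491 and had 105, 128 and 157 scaled counts in cold, against 307, 519.7 and 673 in thermoneutral samples. Every cold value lay well below every thermoneutral value. Itgam fell by 1.88 on the log2 scale (adjusted p = 0.0098, standard error 0.32), and by 1.35 after centring (adjusted p = 0.030), a centred call lost without cold replicate 2 (adjusted p = 0.088) and under the filter on the mean (adjusted p = 0.054). A predicted gene on the same strand shares 68.7% of the exonic bases of Itgam, so reads may be split between them. Itgb2 had 217, 333 and 191 scaled counts in cold, against 347, 627 and 605 in thermoneutral samples. Its highest cold value, in replicate 2, nearly met its lowest thermoneutral value, in replicate 1. The log2 fold change was -1.08 (adjusted p = 0.036), and -0.55 after centring (adjusted p = 0.24). The ratio of Itgam to Itgb2 was 0.484, 0.383 and 0.821 in cold, against 0.885, 0.829 and 1.11 in thermoneutral samples.

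Macrophage markers moved with this pair. All 11 tested macrophage markers fell, where 35.2% of all genes fell, and 6 fell after centring, where 5.35% fell. Their sum was 6464 to 10465 scaled counts in cold against 18258 to 29455 in thermoneutral samples. The scavenger receptor gene Cd163 fell by 2.04 on the log2 scale (adjusted p = 0.0042), the mannose receptor gene Mrc1 by 2.05 (adjusted p = 0.0046), and both also fell after centring (adjusted p = 0.0066 and 0.0075). Without cold replicate 2, 3 macrophage markers fell after centring, where 2.32% of all genes fell. Their part in the fall of Itgam and Itgb2 was not tested. Itgax, which encodes αX of dendritic cells and macrophages, had 53.7, 74.9 and 39.5 scaled counts in cold, against 76.5, 142 and 119 in thermoneutral samples. It was under the main filter, and its log2 fold change of -0.99 did not pass the test under the filter on the mean (adjusted p = 0.063). Itgad, which encodes αD, had 0 to 1.14 scaled counts in cold and 5.10 to 5.81 in thermoneutral samples, too few for a fold change.

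The integrin genes of lymphocytes did not pass the test, and were uneven among cold samples. Itgal encodes αL, the subunit with which T cells bind ICAM-1, and had 91.4, 200.4 and 61.3 scaled counts in cold, against 61.2, 138 and 131 in thermoneutral samples. Itgb7, which encodes the gut-homing subunit β7, had 180.5, 296 and 61.3 in cold, against 77.5, 174 and 202 in thermoneutral samples. Itga4, which encodes α4, the receptor for VCAM-1 that pairs with β1 or β7, had 101, 287 and 96.6 in cold, against 122, 211 and 191 in thermoneutral samples. Each was highest in cold replicate 2. The 12 lymphocyte markers showed the same order among cold samples, with sums of 811, 2396 and 213 scaled counts in replicates 1, 2 and 3, against 167 to 377 in thermoneutral samples. The B cell gene Cd79a was at 497 scaled counts in cold replicate 2 and 11.6 to 15.8 in thermoneutral samples. Log2 fold changes were 0.01 for Itgal (95% interval -1.21 to 1.22) and 0.09 for Itgb7 (95% interval -1.42 to 1.60), and without cold replicate 2 they turned to -0.46 and -0.40. For Itga4, under the filter on the mean, the value was -0.27 (95% interval -1.46 to 0.92), and 0.30 after centring. The part of lymphocyte RNA in these values was not tested.

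Itgae encodes αE, the subunit of tissue-resident T cells and some dendritic cells that binds E-cadherin. It had 89.1, 60.1 and 61.3 scaled counts in cold, against 69.4, 140.3 and 105 in thermoneutral samples. Unlike Itgal and Itgb7 it was not high in cold replicate 2, and its log2 fold change of -0.54 (adjusted p = 0.18) equalled that of the median gene. The ratio of Itgal to Itgb2 was 0.321 to 0.601 in cold against 0.176 to 0.221 in thermoneutral samples, so that, relative to the shared β2 subunit, αL was higher in each cold sample than in any thermoneutral sample, and αM was lower, by little in cold replicate 3.

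**Figure D5:**
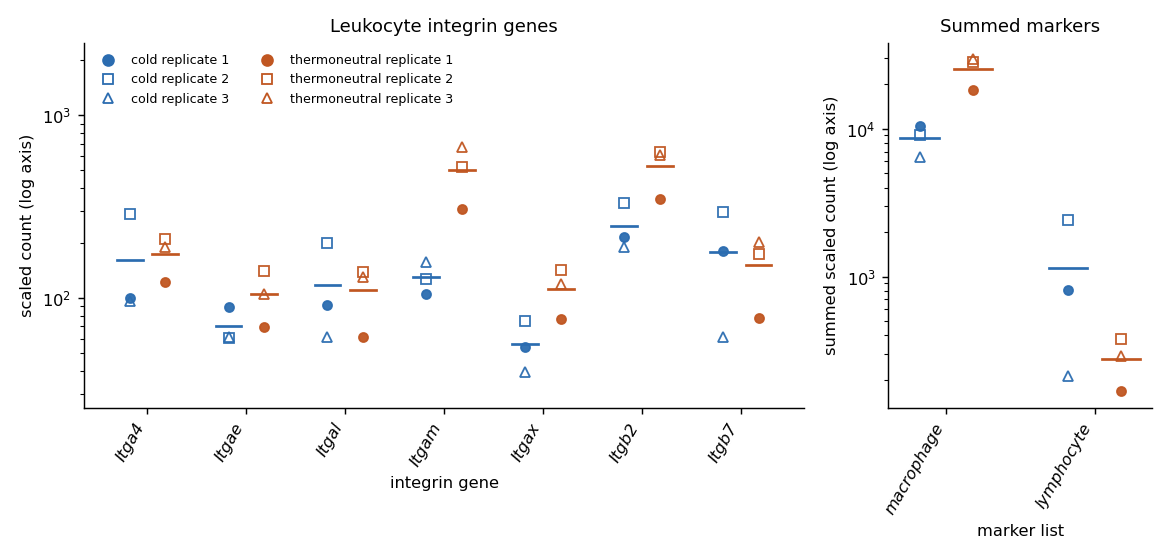
Left, scaled count (log axis) of 7 leukocyte integrin genes in each cold (left, blue) and thermoneutral (right, orange) sample, with a bar at the group mean; Itgad, at 0 to 5.81, is not drawn. Right, summed scaled count (log axis) of macrophage and lymphocyte markers. Itgam (105 to 157 in cold against 307 to 673) and the macrophage sum are separated, and Itga4, Itgal, Itgb7 and the lymphocyte sum are highest in cold replicate 2.

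Set side by side on the deposited scale, the tested laminins had a median log2 fold change of -0.83, the tested matrix integrins of -1.0 and the tested leukocyte integrins of -0.54, against -0.54 for all tested genes. After centring the medians were -0.29, -0.47 and -0.01. Under the filter on the mean the centred medians were -0.57, -0.51 and 0.03, and without thermoneutral replicate 1 they were -0.57, -0.58 and -0.25. These medians hold the genes that passed the FPKM filter only through thermoneutral values. The difference between matrix and leukocyte integrins was not tested, and Itga4 was under the filter, so counting it with the matrix integrins left both counts as they were.

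The partners of laminin in the basement membrane were tested alongside. Of 16 tested partner genes, 7 fell and 1 rose, with a median log2 fold change of -0.87, where 35.2% of all genes fell and their median was -0.54. After centring 2 partners fell and 1 rose, where 5.35% of all genes fell. Nid1, which encodes the nidogen that links laminin γ1 to type IV collagen, had 3987, 5742 and 6209 scaled counts in cold, against 7564, 15325 and 17251 in thermoneutral samples (log2 fold change -1.27, adjusted p = 0.032). Smoc2, a calcium-binding matrix protein, fell by 1.56 on the log2 scale (adjusted p = 0.0091), the type IV collagen gene Col4a5 by 1.94 (adjusted p = 0.012) and the laminin-binding netrin gene Ntn4 by 1.16 (adjusted p = 0.018). Smoc2 and Col4a5 also fell after centring, and under the filter on the mean with centring neither passed (adjusted p = 0.061 and 0.065). Col4a5 had passed the FPKM filter through thermoneutral samples alone, and its adjusted p under the filter on the mean was 0.019 on the deposited scale. Col4a1, which encodes the main chain of type IV collagen, had 15862 to 17732 scaled counts in cold, against 15483, 33008 and 36303 in thermoneutral samples. Like Lama4 it overlapped only through thermoneutral replicate 1, and its log2 fold change of -0.64 did not pass the test (adjusted p = 0.16). With thermoneutral replicate 1 left out, 15 of the 16 partners fell (8 after centring), where 44.1% of all genes fell (10.7% after centring). With cold replicate 2 left out, 5 partners fell (0 after centring), where 22.6% of all genes fell (2.32% after centring).

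Npnt was the partner that rose. It encodes nephronectin, the basement membrane ligand of α8β1, and had 239, 322 and 319 scaled counts in cold, against 122, 44.5 and 60.5 in thermoneutral samples. Every cold sample was above every thermoneutral sample. Npnt rose, with a log2 fold change of 2.05 (adjusted p = 0.011, standard error 0.38), and of 2.59 after centring (adjusted p = 0.0075). The receptor gene Itga8 had the opposite order, with values of 2.28 to 10.5 in cold against 25.2 to 57.1 in thermoneutral samples.

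Of 14 tested integrin ligands other than laminins, 6 fell and none rose, where 35.2% of all genes fell, and after centring 3 fell and 1 rose, where 5.35% of all genes fell and 10.3% rose. Without cold replicate 2, 3 ligands fell (1 after centring), where 22.6% of all genes fell (2.32% after centring). Without thermoneutral replicate 1, 8 ligands fell, where 44.1% of all genes fell. After centring without that sample, 4 ligands fell and 2 rose, where 10.7% of all genes fell and 14.5% rose. Of the tested ligands Fn1 changed most. It encodes fibronectin, the ligand of α5β1, and had 1306, 992 and 744 scaled counts in cold, against 4221, 8453 and 9155 in thermoneutral samples. All cold values were far below all thermoneutral values. Fn1 fell by 2.80 on the log2 scale (adjusted p = 0.0056), and by 2.27 after centring (adjusted p = 0.0097). The thrombospondin gene Thbs2 and the fibrillin gene Fbn1 also fell on both scales (log2 fold changes -1.90 and -1.82), and under the filter on the mean with centring neither passed (adjusted p = 0.055 and 0.061). Jam3, which encodes a junction protein bound by αM, fell on the deposited scale alone (log2 fold change -0.87, adjusted p = 0.041), and not under the filter on the mean (adjusted p = 0.055). The vitronectin gene Vtn also fell on that scale alone (log2 fold change -0.92, adjusted p = 0.046), and not under the filter on the mean (adjusted p = 0.061). The tenascin-C gene Tnc had 186, 214 and 228 scaled counts in cold, against 45.9, 161 and 140 in thermoneutral samples. Tnc did not pass on the deposited scale (log2 fold change 1.04, adjusted p = 0.11) or after centring (log2 fold change 1.57, adjusted p = 0.060). The endothelial ligands of leukocyte integrins did not pass the test: Icam1, the ligand of αL and αM, had a log2 fold change of -0.26 (adjusted p = 0.51) and Vcam1, the ligand of α4, of -0.47 (adjusted p = 0.31), and after centring these turned to 0.28 and 0.07. Icam2, another ligand of αL, did not pass on the deposited scale (log2 fold change 0.78, adjusted p = 0.084) and rose after centring (log2 fold change 1.31, adjusted p = 0.033), and under the filter on the mean with centring it did not pass (adjusted p = 0.052). Without thermoneutral replicate 1, Icam2 and Tnc both rose after centring (adjusted p = 0.016 and 0.0082). Without cold replicate 2 neither passed after centring (adjusted p = 0.083 and 0.12).

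Inside the cell, 8 of 30 tested genes of the integrin adhesion complex fell and none rose, where 35.2% of all genes fell. The median log2 fold change of -0.52 was near that of all genes (-0.54). After centring 3 fell and 1 rose, where 5.35% of all genes fell and 10.3% rose. The number that fell was 17 without thermoneutral replicate 1 (5 after centring), where 44.1% of all genes fell (10.7% after centring). It was 7 without cold replicate 2 (1 after centring), where 22.6% fell (2.32% after centring). Tln2, which encodes a talin that activates integrins, had 512, 659 and 702 scaled counts in cold, against 1530.4, 1991 and 1809.7 in thermoneutral samples, giving a log2 fold change of -1.51 (adjusted p = 0.0058) and of -0.98 after centring (adjusted p = 0.015). The tensin gene Tns3 had 194, 223 and 190.1 in cold, against 939, 645 and 719 in thermoneutral samples, and the kinase gene Src had 135, 118 and 119 in cold, against 602, 377 and 342. Their log2 fold changes were -1.90 and -1.78, and both genes fell on each scale. Without cold replicate 2 the centred calls of Tln2 and Src were lost (adjusted p = 0.054 and 0.084). Pxn, which encodes the adaptor paxillin, fell by 0.92 on the log2 scale (adjusted p = 0.013) and did not pass after centring. Fermt1, which encodes the kindlin of epithelia, had 253 scaled counts in thermoneutral replicate 1 and was listed at 0 in the other 5 samples. Of 8 tested laminin receptors other than integrins, only Utrn, which encodes the dystrophin relative utrophin, fell (log2 fold change -1.30, adjusted p = 0.019). None fell after centring, and the shares of all genes were 35.2% and 5.35%. Without thermoneutral replicate 1, 4 receptors fell (1 after centring), where 44.1% of all genes fell (10.7% after centring). Without cold replicate 2, 2 receptors fell (0 after centring), where 22.6% of all genes fell (2.32% after centring).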

How the data were processed

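Per the labels, RNA from frozen iWAT was made into TruSeq RNA v2 libraries, which do not keep the strand. Bowtie 0.12.2 and 2 builds, mm10 and mm8, appear in the processing notes of the submitters with no role stated, and the counting tool is not given in the sources used here. The deposited table holds FPKM values and a count signal that the authors had scaled by 1 factor per sample, and their methods name a filter on low counts and TMM normalization. Of its values under 20 fragments, 94.4% to 95.0% were whole multiples of 1 step per sample, so count tests were not run. Values were compared with limma 3.58.1 (R 4.3.3; trend and robust off), a pseudocount of 1 and Benjamini-Hochberg adjustment. The fit was tested on simulated data. Positions and shared exons are from GENCODE on GRCm38: 12 members share exonic bases with another gene, 3 of them over 10%. Symbols on several rows (79) were read from the row with the highest mean. Tables and plots used Python 3.11.15, pandas 2.3.3 and matplotlib 3.10.9. Named genes were all members, up to 4 called genes per partner or marker list by adjusted p, and some main ligands. Nid1, Col4a1, Fermt1, Krt14, Acta1, Cd79a, Icam2, Vtn and Tnc were named after their values were seen. Members and lists were chosen with earlier results of these data known. Of the macrophage and adhesion complex lists, 1 symbol each did not match the table. Adjusted p values are from limma. Results of 1 member are not reported here.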

Additional observations from a re-analysis of the deposited data

How the results depend on the processing

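Pseudocounts of 0.1 and 5 changed no call or direction of the 26 tested members. FPKM in place of scaled counts lost Itgav, gained Itga7 and Itga2b and turned Itga6 to 0.11. On centred values the direction turned for Lamb3 (0.35), Itga1 (0.40), Itga3 (0.16), Itga6 (0.42), Itga5 (0.046), Itgb1 (0.29), Icam1 (0.28) and Vcam1 (0.066), and by quantile normalization for Lamb3 (0.47), Itga1 (0.38), Itga3 (0.27), Itga6 (0.28), Itga5 (0.012), Itgae (0.10), Icam1 (0.35) and Vcam1 (0.15). With the filter on the mean scaled count and centring, Lamb3 was 0.39, Itga1 0.44, Itga3 0.20, Itga6 0.46, Itga5 0.084, Itgb1 0.32, Itgae 0.029, Icam1 0.31 and Vcam1 0.10.

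Counts that fell moved as follows. With centring they were 623 of all genes, 1 laminin, 2 matrix and 1 leukocyte integrin, 2 basement membrane partners, 0 other laminin receptors, 3 ligands and 3 adhesion complex genes, while 1200 genes, 1 ligand (Icam2) and 1 adhesion complex gene (Ptk2b) rose. By quantile normalization they were 704, 2, 1, 1, 1, 0, 3 and 3 in the same order, and 2 ligands and 1 adhesion complex gene rose. With the filter on the mean and centring they were 405, 2, 1, 0, 0, 0, 1 and 3, and 1 ligand (Fgg) and 1 adhesion complex gene rose. That filter alone, and an FPKM of at least 0.1, each left 1 leukocyte integrin and 3 ligands fallen and 1 ligand risen. No filter left 3 ligands and 5 adhesion complex genes. The study's thresholds (unadjusted p of 0.05, fold of 2) gave 2168 genes, 2 receptors and 5 adhesion complex genes. A pseudocount of 5, FPKM, and the trend and robust options each gave 2 receptors. Shares of all genes are not given for each of these settings, so the moves are not read as particular to a list. Their cause was not tested.

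Leaving out 1 sample, or cold replicate 2 with thermoneutral replicate 1, gave 1061 to 5134 fallen and 373 to 933 risen genes (153 to 1245 and 620 to 1686 with centring), 1 to 5 laminins (0 to 3), 3 to 8 matrix integrins (1 to 5; 0 to 1 rose), 1 to 3 leukocyte integrins (0 to 1), 2 to 15 partners, 0 to 4 receptors, 3 to 9 ligands and 3 to 21 adhesion complex genes. The lowest counts of all genes came without thermoneutral replicate 3 and the highest without thermoneutral replicate 1. Directions turned among -0.54 to 0.21 for Lamb3, -0.19 to 0.16 for Lamc3, -0.56 to 0.085 for Itga1, -0.30 to 0.23 for Itga6, -0.84 to 0.38 for Itgal and -0.83 to 0.72 for Itgb7. Read from scaled counts, class shares (cold minus thermoneutral) moved to -6.30 points for Lama2, -1.63 for Lama3, -4.56 for Lamc1 and 4.77 for Lamc3.

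Replicate numbers are shared by the groups but did not pair the samples: same-number deviations correlated at -0.0043, 0.038 and 0.066. With the replicate block 2 receptors fell, and among members Itgb5 was lost and Itga2b gained, with no share of all genes given beside these. With the block and centring 238 genes, 0 laminins and 0 matrix integrins fell and 654 genes rose.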
